A study of Mus musculus with 719 samples.

Results

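The genes Gm13394, Eno1b, Eno1, Gm15487, Gm26825, Gm4735 and Hmgn2 were followed in single mouse retinal ganglion cells that respond to the direction of motion, as 7 of the 53374 rows of the deposited gene table. They were chosen by name because their levels separated cells of one mouse line from cells of the other lines in these same data, so the difference between lines is given below as values, with no test. The 719 cells were profiled with Smart-seq2, a full-length polyA protocol without molecular identifiers, and each sample is 1 cell. ON-OFF cells preferring downward motion came from the HB9-GFP line (237 cells, postnatal days 4, 5, 8, 10, 12 and 14). The Spig1-GFP line gave the ON cells of postnatal days 4, 5, 7, 8, 10 and 12, which are labelled up (206 cells) or down (184 cells), and the sort took cells with and without GFP. A further 92 ON cells came from a Pcdh9-Cre line at P10 (postnatal day 10), with unknown preferred direction. All cells shared papain dissociation and a sort for fluorescent cholera toxin B without the microglial surface protein CD11b. All ON-OFF cells came from HB9-GFP and all ON cells from the other lines, so cell type and mouse line cannot be told apart between HB9-GFP and the rest. The background strain of each line, the number of animals and the promoter behind each transgene were not given in the sources used here.

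Most of these genes are near-identical copies of other genes. A processed pseudogene arises when a messenger RNA is reverse transcribed and inserted elsewhere in the genome, which leaves a copy without introns. Such a copy may be carried by only some individuals or strains, and short reads from the parent gene can align to the copy. Eno1 encodes the glycolytic enzyme alpha-enolase, and Eno1b and Gm4735 are copies of it. Gm13394 is a copy of Gapdh, which encodes another glycolytic enzyme. Gm26825 carries, on its opposite strand, the sequence of Hspa8, which encodes a constitutive heat shock chaperone. Gm15487 is a copy of Atp6v0c, which encodes the proton-carrying ring of the vacuolar ATPase. Hmgn2 encodes a nucleosome-binding high mobility group protein, and here it is the multi-exon gene with intronless relatives of its own, among them Gm10282.

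The sequences below are shown because they are the stretches in which parent and copy can, or cannot, be told apart by a read of 75 bases, the read length of this study. They come from the GENCODE M21 transcripts on GRCm38, and capitals mark bases that differ within a pair. Positions in each token are counted from 1 at the 5′ end of the printed window, with the parent's base first. The Eno1 window spans exons 11 and 12 (chr4:150248075-150248515, plus strand), Gm4735 lies at chr2:80838331-80838405 (plus strand), and they differ at T34C and C43T.
Eno1: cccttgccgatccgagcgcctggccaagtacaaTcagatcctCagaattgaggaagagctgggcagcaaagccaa
Gm4735: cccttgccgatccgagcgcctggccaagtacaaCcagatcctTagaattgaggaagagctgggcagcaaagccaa
The Gapdh window spans exons 3 and 4 (chr6:125162979-125163151, minus strand), Gm13394 lies at chr2:28934227-28934301 (minus strand), and they differ at A38C.
Gapdh: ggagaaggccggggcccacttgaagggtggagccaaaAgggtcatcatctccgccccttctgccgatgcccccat
Gm13394: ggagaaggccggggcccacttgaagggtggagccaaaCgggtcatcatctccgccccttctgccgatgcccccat
The Hspa8 window spans exons 3 and 4 (chr9:40802589-40802778, plus strand). Its counterpart within Gm26825 lies at chr5:5783105-5783179 and is printed from the minus strand, opposite to the annotated gene, with the difference C38T.
Hspa8: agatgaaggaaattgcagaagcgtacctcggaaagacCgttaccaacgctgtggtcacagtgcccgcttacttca
Gm26825: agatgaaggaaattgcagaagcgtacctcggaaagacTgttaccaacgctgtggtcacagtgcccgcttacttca
The Atp6v0c window spans exons 1 and 2 (chr17:24164814-24169211, minus strand), Gm15487 lies at chr6:37806159-37806233 (plus strand), and they differ at T38C.
Atp6v0c: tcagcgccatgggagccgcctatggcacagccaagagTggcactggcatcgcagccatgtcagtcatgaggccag
Gm15487: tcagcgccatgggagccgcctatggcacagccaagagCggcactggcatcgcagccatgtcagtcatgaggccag
The first coding bases of Hmgn2, over exons 1, 2 and 3 (chr4:133966781-133967809, minus strand), have 0 differences from Gm10282 (chr8:72305107-72305181, minus strand).
Hmgn2: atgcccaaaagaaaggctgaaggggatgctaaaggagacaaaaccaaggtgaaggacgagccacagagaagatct
Gm10282: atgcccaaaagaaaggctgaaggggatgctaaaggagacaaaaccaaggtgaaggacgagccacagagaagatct

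The windows were placed where pairs differ, apart from that of Hmgn2, and over longer stretches the pairs differed at few positions. Gm4735 differed from the 1302 coding bases of Eno1 at 5 positions (T726C, T816G, A1056G, T1224C and C1233T, counted from 1 at the first coding base), and Eno1b differed at 8 positions. Gm13394 differed from Gapdh at 1 of 1000 aligned bases and Gm15487 from Atp6v0c at 1 of 465. Gm26825 differed from Hspa8 at 5 of 1937 aligned bases. The 270 coding bases of Hmgn2 were identical in Gm10282, and 6 of 1149 aligned bases of the transcripts differed. Each transcript was cut into all its words of 75 bases. Words were pooled over a gene's annotated transcripts, 11 for Eno1, 13 for Hmgn2 and 1 or 2 for each copy. The share of a gene's words found in no other annotated gene was 77% for Eno1 and 79.4% for Hmgn2. For the copies this share was 19.4% (Eno1b), 19.2% (Gm15487), 10.5% (Gm4735), 8.10% (Gm13394) and 8.04% (Gm26825), and Gm13394 shared words with 120 other genes. A value for any of these copies is therefore uncertain, since most reads from the copy, taken singly, would also match another gene. The parents are not free of this. Of the 1191 words of the Hmgn2 transcript ENSMUST00000102553, 666 occur in other genes. Reads were paired, which the words do not use, and how reads matching several genes were assigned was not given in the sources used here.

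Annotated places of these genes are scattered over the genome. Eno1 (ENSMUSG00000063524.13) spans chr4:150236721-150248879 and Hmgn2 (ENSMUSG00000003038.15) spans chr4:133964738-133968650, both multi-exon protein-coding genes. Gm4735 (ENSMUSG00000064193.8, chr2:80837141-80838442, plus strand) and Gm13394 (ENSMUSG00000083773.4, chr2:28933610-28934609, minus strand) are annotated as processed pseudogenes, and Gm13394 lies within the gene Cfap77. Gm15487 (ENSMUSG00000080242.5, chr6:37806086-37806550, plus strand) is a processed pseudogene that the reference names Atp6v0c-ps2. Gm26825 (ENSMUSG00000097554.1, chr5:5781530-5783636, plus strand) is annotated as a lincRNA. It overlaps the Hspa8 pseudogene Gm15459 on the other strand, shares 1781 of the 1952 words of Gm26825, and Smart-seq2 does not mark strand. Reads from the shared words cannot be told apart, so the values of both genes are uncertain. Eno1b (ENSMUSG00000059040.4, chr18:48045335-48048412, plus strand) is annotated as protein coding and overlaps AC150274.2.

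The copies were low in the HB9-GFP line and far higher in the Spig1-GFP and Pcdh9-Cre lines. A pool is all cells of 1 group at 1 age, and its value is the mean over cells in CPM, the estimated fragments of a gene scaled to a fixed total per cell. Gm13394 ran from 0.447 to 0.914 CPM in the 6 HB9-GFP pools (median 0.687). It ran from 75.1 to 177 CPM in the 6 down pools of Spig1-GFP (median 101) and from 75.4 to 129 CPM in the 6 up pools (median 114). The Pcdh9-Cre pool, at 282 CPM, stood above all 12 Spig1-GFP pools, and the HB9-GFP pools lay below every other pool. Eno1b had 0.513 to 1.28 CPM in HB9-GFP pools (median 0.814). Its down pools had 95.8 to 248 CPM (median 145), its up pools 76.1 to 252 CPM (median 121) and the Pcdh9-Cre pool 151 CPM. As for Gm13394, no HB9-GFP pool reached any pool of another line.

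Gm26825, with the Hspa8 sequence, and Gm15487, the copy of the vacuolar ATPase gene, showed the same order of lines. Gm26825 ran from 2.09 to 5.99 CPM in HB9-GFP pools (median 3.59), from 232 to 315 CPM in down pools (median 246) and from 206 to 295 CPM in up pools (median 270). The Pcdh9-Cre pool had 191 CPM, a little below the lowest Spig1-GFP pool. Gm15487 ran from 2.02 to 4.05 CPM in HB9-GFP pools (median 3.02), from 36.2 to 56.4 CPM in down pools (median 45.3) and from 34.2 to 56.6 CPM in up pools (median 46), with 57.5 CPM in the Pcdh9-Cre pool. Gm4735, the second Eno1 copy, had the highest level of the copies in HB9-GFP cells, at 9.68 to 15.3 CPM per pool (median 11.9). Its down pools had 78.8 to 177 CPM (median 112), its up pools 59.4 to 190 CPM (median 90.5) and the Pcdh9-Cre pool 110 CPM. The pools of HB9-GFP and Spig1-GFP did not overlap for these 3 genes either.

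**Figure D1:**
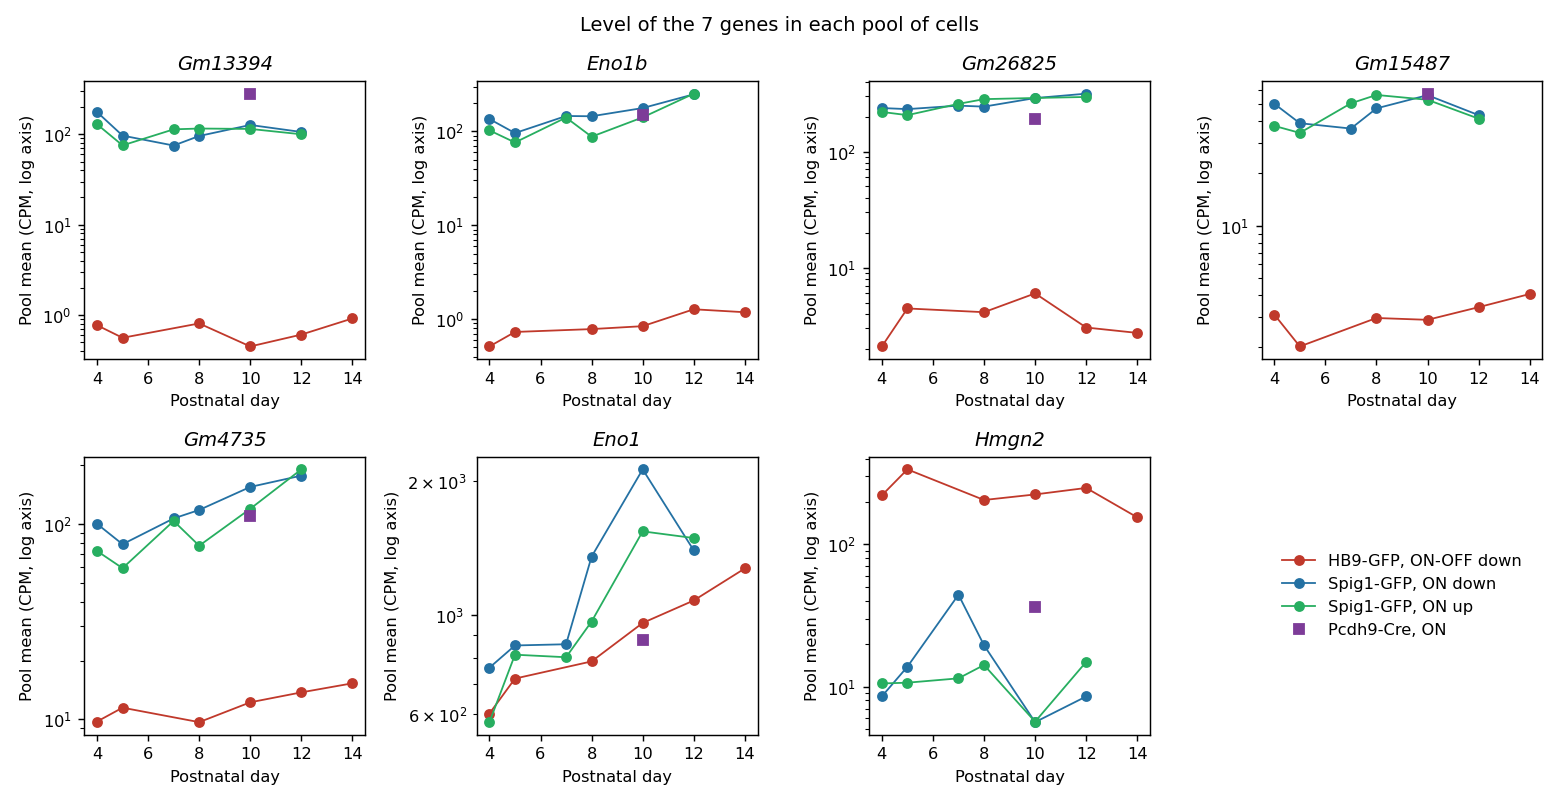
Mean level of each gene in each pool of cells (CPM, log axis) against postnatal day, by group, with lines joining the pools of a group and a square for the single Pcdh9-Cre pool. For Gm13394 the 6 HB9-GFP pools reach at most 0.914 CPM and the 12 Spig1-GFP pools at least 75.1 CPM, while the groups overlap for Eno1 and the order is reversed for Hmgn2.

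The ratio of the mean over the 12 Spig1-GFP pools to the mean over the 6 HB9-GFP pools was 164 for Eno1b, 162 for Gm13394, 69.4 for Gm26825, 14.8 for Gm15487 and 9.41 for Gm4735. On the log2(mean CPM + 5) scale, which understates the change of low genes, the ON-OFF minus ON difference at the 5 shared ages averaged -4.90 for Gm26825 (SD over ages 0.27), -4.59 for Eno1b (SD 0.51) and -4.37 for Gm13394 (SD 0.28). These were the 3 lowest of 11427 genes in that comparison, while Gm4735 (-2.78, SD 0.44) was the 18th and Gm15487 (-2.68, SD 0.19) the 21st lowest. Over all genes, 9.65% passed limma at an adjusted p of 0.05 in this comparison (4.65% with higher and 5.01% with lower levels in ON-OFF), and since it chose the genes nothing is read from that share here. Among the 7 genes, the pools of HB9-GFP and Spig1-GFP overlapped for Eno1 alone. The share of all genes without overlap was not counted, and since the genes were chosen for this split nothing is read from it. The smallest pseudocount tried, 1, gave -6.23 for Eno1b and -6.10 for Gm13394, and the largest, 20, gave -2.91 and -2.67.

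Single cells showed the same split with few exceptions. Gm13394 had at least 0.5 fragments in 100 of 237 HB9-GFP cells (42.2%, exact binomial 95% interval 35.8% to 48.8%) and never more than 4.68 CPM, or 3 fragments. It was present in 179 of 184 down cells, 205 of 206 up cells and 92 of 92 Pcdh9-Cre cells, with medians of 115, 106 and 265 CPM. Only 9 of 390 Spig1-GFP cells were at or below the highest HB9-GFP cell for Gm13394, 6 of 390 for Eno1b and 1 of 390 for Gm26825. For Gm4735 and Gm15487 these counts were 39 and 36. At the median depth of a HB9-GFP cell, 3 fragments correspond to 3.33 CPM. These intervals and limits cover counting error only. Of the 482 ON cells, 473 had all of Gm13394, Eno1b and Gm26825, and 1 cell lacked 2 of them. Of the 237 HB9-GFP cells, 57 had none of these 3 genes, 107 had 1, 63 had 2 and 10 had all 3 at 0.5 fragments or more.

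Among the parent genes, Eno1 did not show this split. Eno1 had 600.4 to 1273 CPM in HB9-GFP pools (median 873), 762 to 2128 CPM in down pools (median 1107), 574 to 1543 CPM in up pools (median 891) and 877 CPM in the Pcdh9-Cre pool. The ranges of the 3 groups overlapped, and the mean over Spig1-GFP pools was 1.25 times that over HB9-GFP pools. Eno1 had the 1334th lowest ON-OFF minus ON difference of 11427 genes (-0.44, SD 0.31 over 5 ages). Summed with Eno1b, Gm4735 and Gm5855, a further Eno1 pseudogene, the difference was -0.72 on the log2 scale (SD 0.27). Gm5855, which is no member of the set, had 0.513 CPM in HB9-GFP pools on average against 10.1 CPM in down and 8.35 CPM in up pools.

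Hspa8 itself averaged 2421 CPM in HB9-GFP, 2298 CPM in down and 2295 CPM in up pools, and Atp6v0c averaged 523, 424 and 439 CPM. With their copies added, the ON-OFF minus ON difference was -0.16 for the Hspa8 sum (SD 0.10) and 0.0069 for the Atp6v0c sum (SD 0.19). Each was well under the size of the difference of Gm26825 or Gm15487. Both parents were far above their copies in CPM, so each sum largely follows the parent whatever the copy does. Gm15459, which overlaps Gm26825, had 50.1 CPM in HB9-GFP and 139 and 140 CPM in down and up pools. Gapdh itself was low, at 1.36 to 8.47 CPM in HB9-GFP, 3.94 to 10.8 CPM in down and 1.25 to 8.90 CPM in up pools, which overlapped, and at 13.3 CPM in the Pcdh9-Cre pool. Since 851 of the 926 words of Gm13394 also occur in Gapdh, the value of Gapdh is uncertain and is no sound reference for the split. Per length, Gapdh had 6.50 FPKM in down pools beside 141 FPKM for Gm13394, and 4.93 FPKM in HB9-GFP pools beside 0.889 FPKM. Gapdh, Gm13394 and 9 more Gapdh pseudogenes summed to 11.1 CPM in HB9-GFP, 124 CPM in down, 118 CPM in up and 308 CPM in Pcdh9-Cre pools on average.

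Levels of different genes were compared in FPKM, the authors' deposited values per length and depth. In down pools Eno1 averaged 695 FPKM, Gm15487 203 FPKM, Gm13394 141 FPKM, Gm26825 138 FPKM, Gm4735 113 FPKM and Eno1b 100.3 FPKM. In HB9-GFP pools Eno1 averaged 490 FPKM and Hmgn2 225 FPKM, while Gm15487 had 14.4 FPKM, Gm4735 11 FPKM, Gm26825 2.03 FPKM, Gm13394 0.889 FPKM and Eno1b 0.569 FPKM. Per length, Gm15487 was thus the most abundant copy in every group apart from Pcdh9-Cre, where Gm13394 had 358 FPKM against 267 FPKM for Gm15487.

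Hmgn2 ran the other way. It had 155 to 337 CPM in HB9-GFP pools (median 223), 5.62 to 44.2 CPM in down pools (median 11.2), 5.67 to 14.9 CPM in up pools (median 11) and 36.1 CPM in the Pcdh9-Cre pool. All 6 HB9-GFP pools lay above every other pool, with a mean 16.6 times that of the Spig1-GFP pools. The ON-OFF minus ON difference was 3.99 (SD 0.45 over 5 ages), the 6th highest of 11427 genes. Hmgn2 was detected in 234 of 237 HB9-GFP cells (median 199 CPM) and in 143 of 184 down and 174 of 206 up cells, where the medians were 2.92 and 4.20 CPM.

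The deposited transcript table placed this difference in 1 of the 13 Hmgn2 transcripts. ENSMUST00000102553, a 6-exon transcript of 1265 bases, averaged 224 CPM in HB9-GFP pools (149 to 324), 6.82 CPM in down pools (0.888 to 31.7), 2.32 CPM in up pools (1.22 to 3.34) and 5.43 CPM in the Pcdh9-Cre pool. The other 12 transcripts together averaged 7.77 CPM in HB9-GFP, 9.89 CPM in down, 8.91 CPM in up pools and 30.6 CPM in the Pcdh9-Cre pool, and the pool ranges of the HB9-GFP and Spig1-GFP lines overlapped. Of the 1191 words of ENSMUST00000102553, 342 occur in no other Hmgn2 transcript and 666 occur in other genes. Gm10282, whose coding sequence is the same, averaged 15.4 CPM in HB9-GFP, 13.1 CPM in down, 13.3 CPM in up and 29.1 CPM in Pcdh9-Cre pools. Gm6594 and Gm7125, which share 14 and 13 words with Hmgn2, averaged 0.00490 and 0 CPM in HB9-GFP pools against 0.998 and 2.28 CPM in down pools.

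**Figure D2:**
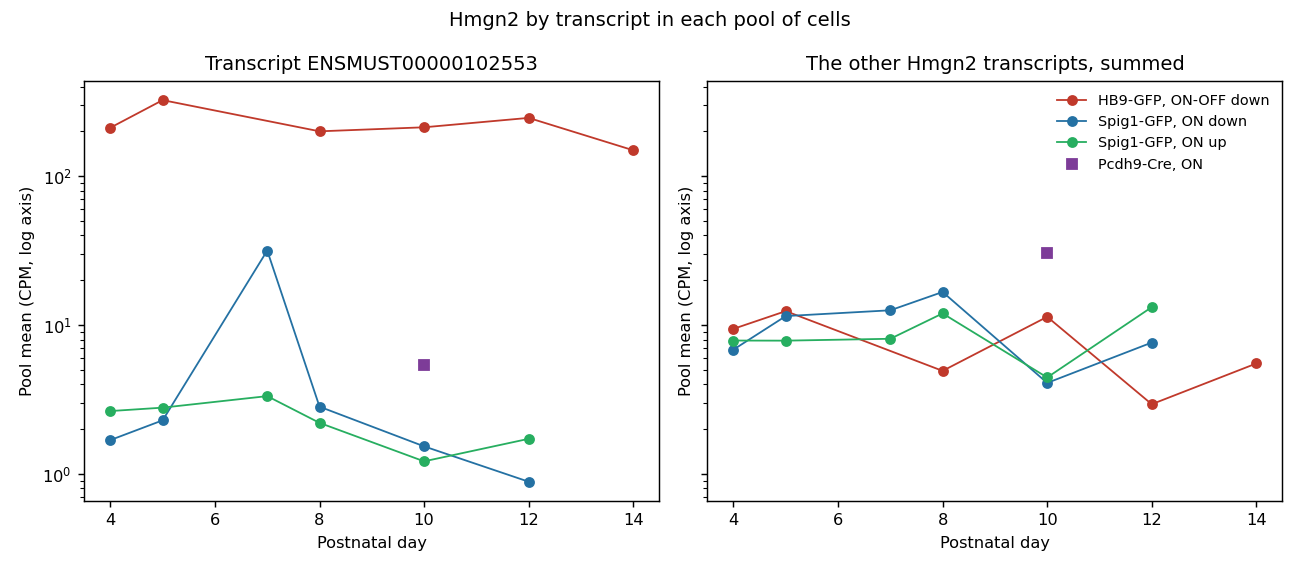
Pool means (CPM, log axis) of the Hmgn2 transcript ENSMUST00000102553 (left) and of the other 12 Hmgn2 transcripts summed (right) against postnatal day, by group. The HB9-GFP pools stand at 149 to 324 CPM for the first and between 2.94 and 12.4 CPM for the sum of the others, where the groups overlap.

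Shares of parent and copy within a cell do not depend on the cell's total. They were taken in cells with at least 100 fragments over the pair, as copy divided by parent plus copy, and were added after the values had been seen. The Gm26825 share of Hspa8 and Gm26825 had a median of 10.05% in down cells (n = 184), 9.83% in up cells (n = 206) and 9.88% in Pcdh9-Cre cells (n = 91). It stayed between 9.66% and 10.3% as the median of each of the 13 ON pools, and the highest HB9-GFP cell had 2.01%. The Gm15487 share of Atp6v0c and Gm15487 was 9.49% in down, 9.13% in up and 9.81% in Pcdh9-Cre cells by median, against 0.512% in HB9-GFP cells. The medians of the ON pools ran from 8.01% to 10.4% for Gm15487. Neither share had a pool median near that of the HB9-GFP cells.

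**Figure D3:**
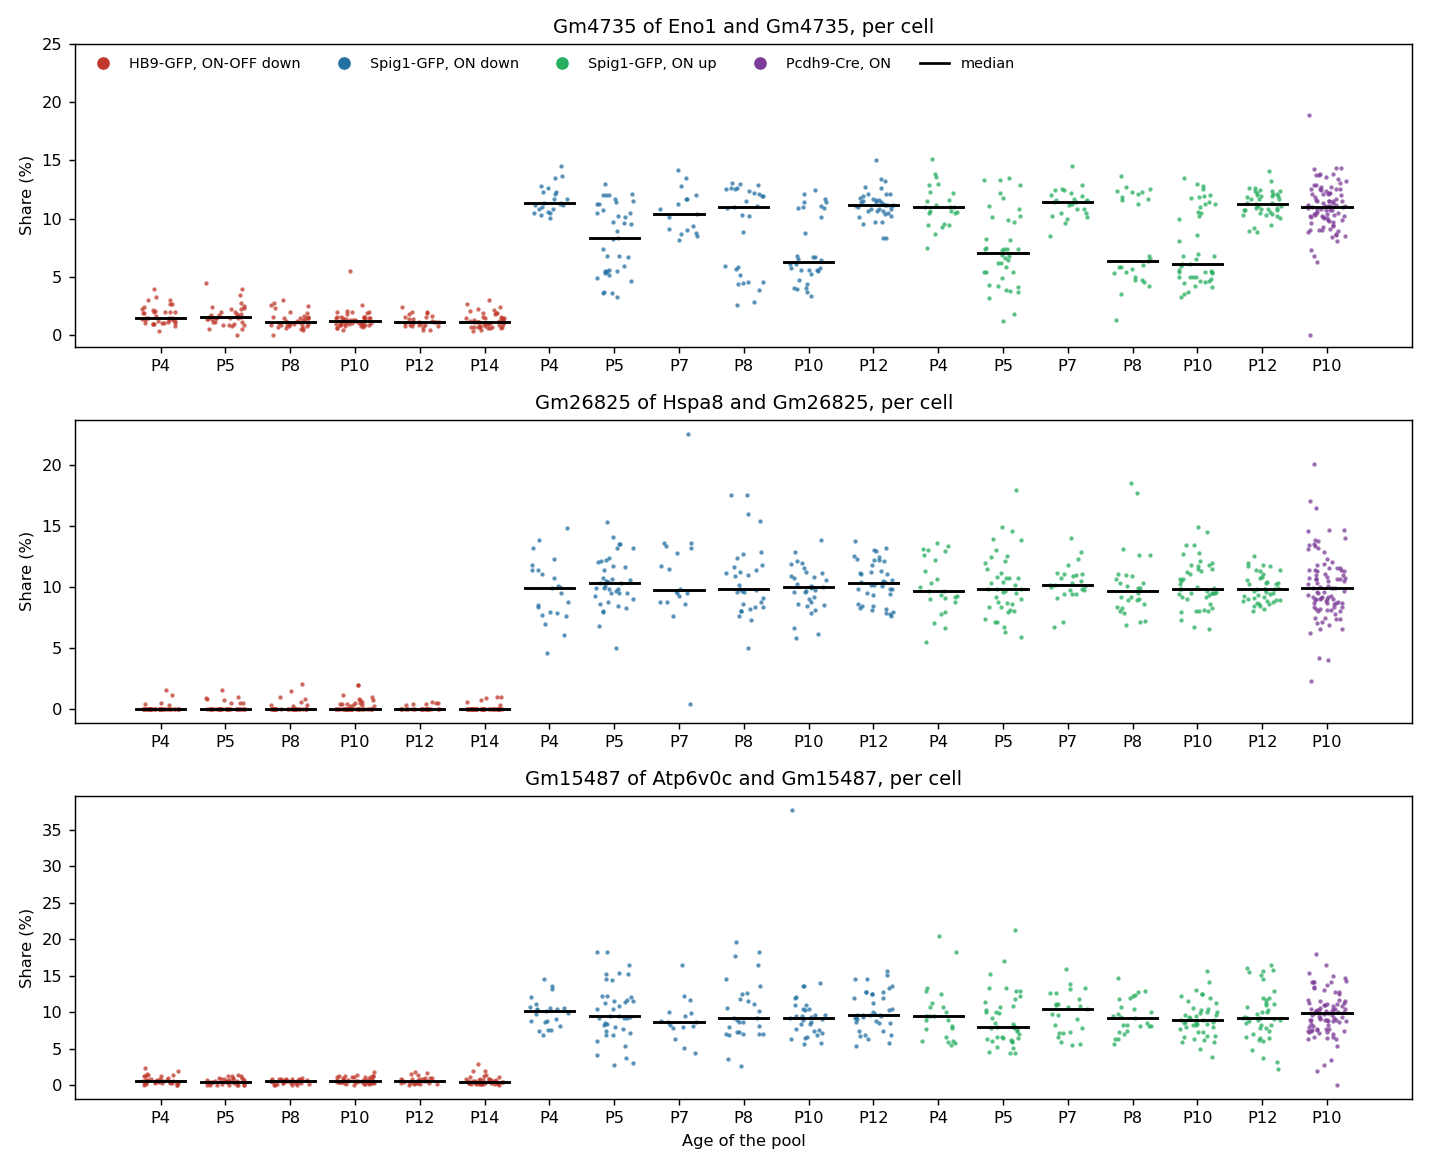
Share (%) of Gm4735, Gm26825 and Gm15487 fragments in the sum with the parent gene, 1 point per cell with at least 100 fragments over the pair, by group and age, with the pool median as a bar. The median Gm26825 share stays between 9.66% and 10.3% in all ON pools, while the Gm4735 share falls into upper and lower clouds at P5, P8 and P10 of Spig1-GFP.

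The Eno1 copies behaved differently. The Eno1b share of Eno1 and Eno1b had a median of 0% in HB9-GFP cells (highest cell 1.01%) and 14.6% in Pcdh9-Cre cells (10.6% to 19.8%). In Spig1-GFP cells the lowest share at P4, P7 and P12 was 11.6%. At P5, P8 and P10 the cells of both directions fell into an upper cloud near the level of the other ages and a lower cloud. Under 10% were 21 of 39 down and 26 of 40 up cells at P5, 11 of 30 and 16 of 27 at P8, and 21 of 32 and 29 of 45 at P10. No cell of the other Spig1-GFP pools or of Pcdh9-Cre was under 10%. Up and down cells of 1 age may share animals, which the labels do not name.

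**Figure D4:**
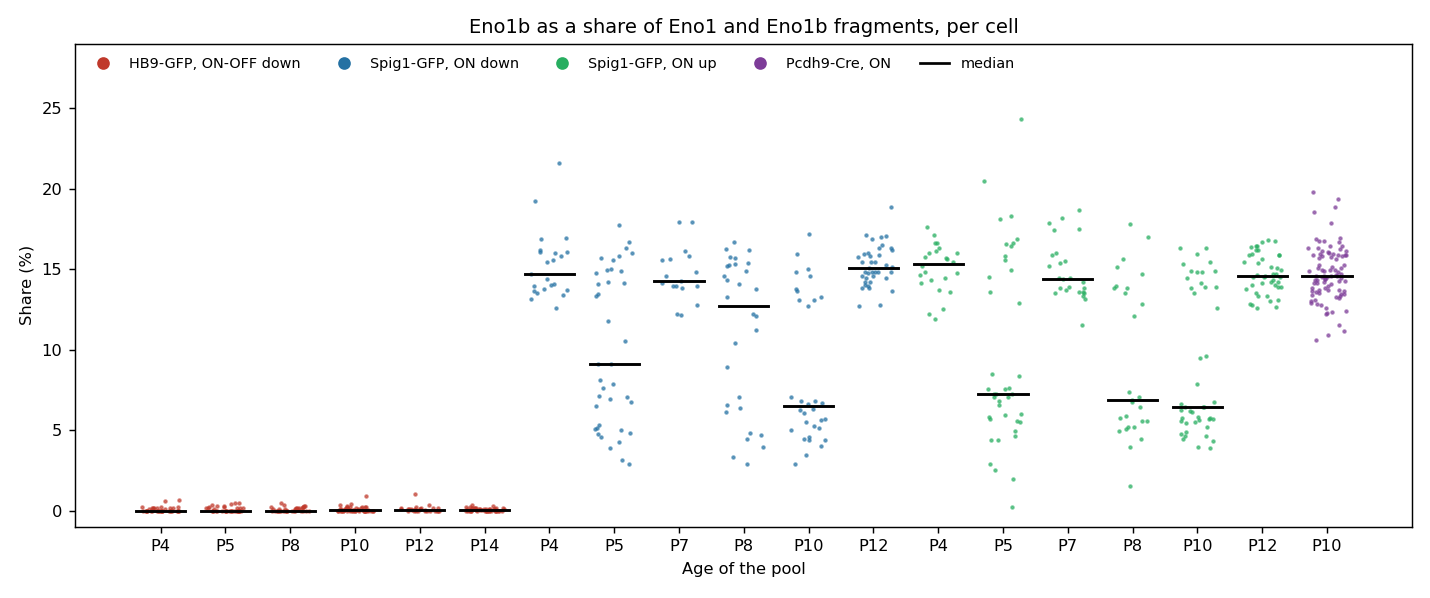
Eno1b fragments as a share (%) of Eno1 and Eno1b fragments, 1 point per cell with at least 100 fragments over the pair, by group and age, with the pool median as a bar. HB9-GFP cells lie at or under 1.01%, Spig1-GFP cells at P4, P7 and P12 have a lowest value of 11.6%, and cells at P5, P8 and P10 in an upper and a lower cloud.

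Gm4735 followed Eno1b. Its share of Eno1 and Gm4735 had medians of 11.3% in down and 11% in up cells at P4, 8.35% and 7.07% at P5, 11% and 6.32% at P8, and 6.27% and 6.13% at P10. The down median at P8 was thus near those of P4 and P12. It was 11.2% in both at P12, 11% in Pcdh9-Cre and 1.28% in HB9-GFP cells. The cells also belong to 2 series of the submitters' sample sheets, recorded in the deposited table of cells, with running numbers that restart between them (314 and 405 cells). What separated these series is not stated. The values by series that follow are Eno1b shares. At P10 the second series held only cells under 10% (highest 7.05% of 16 down and 7.87% of 22 up cells). The first series at P10 held both clouds, with medians of 13.2% over 16 down and 13.9% over 23 up cells. At P5 both series held both clouds, with 10 of 20 and 11 of 19 down cells and 12 of 20 and 14 of 20 up cells under 10% in the first and second series. At P8 these counts were 8 of 15 and 3 of 15 down cells and 6 of 13 and 10 of 14 up cells.

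One gene on the chromosome of Eno1 tracked the Eno1b share. Over 213 Spig1-GFP cells at P5, P8 and P10, the share was correlated with the log2 level of each of 11337 genes after subtraction of the pool means. Gnb1, which encodes a beta subunit of heterotrimeric G proteins, had Pearson r = -0.69, where the next lowest genes were Gm8399 (-0.42) and Gm1821 (-0.41) and the SD of r over genes was 0.086. The highest values were those of Eno1b itself (0.63) and Gm4735 (0.42), which enter or resemble the share, and Rps19-ps6 (0.40). The members outside the Eno1 family had r between 0.0074 (Hmgn2) and 0.25 (Gm13394). The points are single cells of 6 pools with a shared protocol, and r is given as a description with no p.

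Gnb1 (chr4:155491361-155559269, plus strand) lies 5.24 Mb beyond Eno1. It is not among the 20 tested genes nearest to Eno1, whose r ran from -0.15 (Per3) to 0.19 (Camta1). Within pools, its r with the share was -0.84 in down and -0.87 in up cells at P5, -0.69 and -0.73 at P8, and -0.56 and -0.55 at P10. In the 6 pools of P4, P7 and P12 it ran from -0.21 to 0.21, and it was -0.071 in 90 Pcdh9-Cre cells. The median Gnb1 level per pool was 860 to 1116 CPM in Spig1-GFP at P4, P7 and P12, and 985 to 2022 CPM at P5, P8 and P10. HB9-GFP pools, where Eno1b was near 0, had Gnb1 medians of 3181 to 6910 CPM, above every ON pool.

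**Figure D5:**
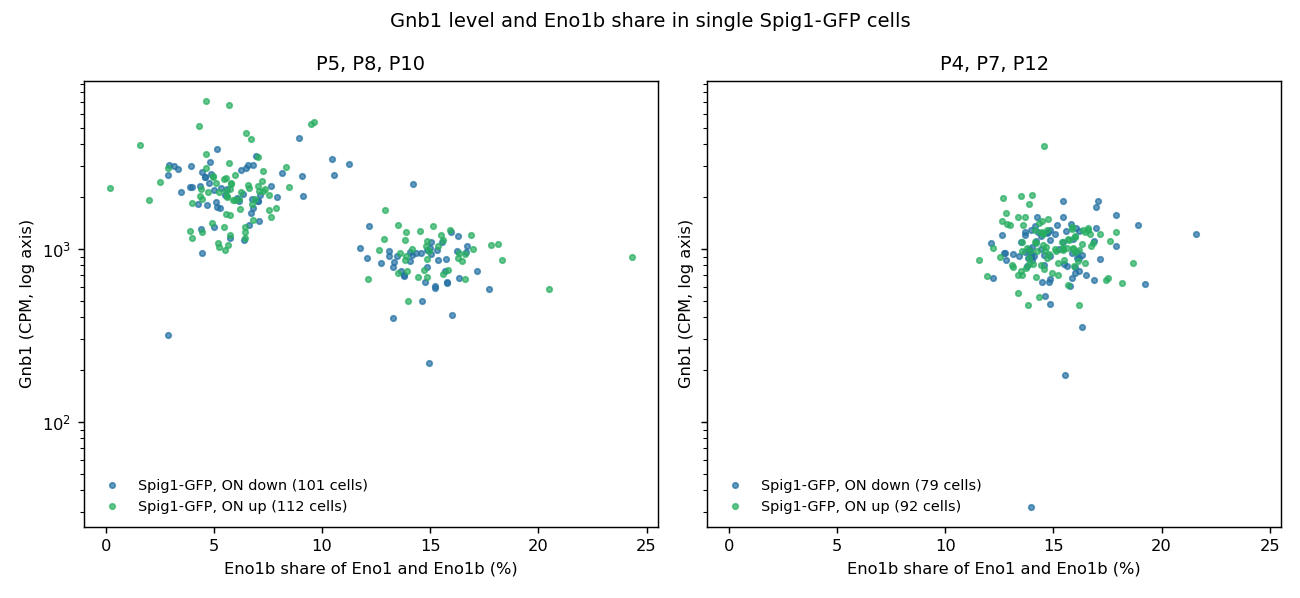
Gnb1 level (CPM, log axis) against the Eno1b share of Eno1 and Eno1b (%) in single Spig1-GFP cells at P5, P8 and P10 (left, 213 cells) and at P4, P7 and P12 (right, 171 cells), down cells in blue and up cells in green. Cells with low shares are mostly those with high Gnb1 on the left, and the lowest share on the right is 11.6%.

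The split between lines was also looked at in cells without ganglion cell genes. Neither Rbpms, an RNA-binding protein of ganglion cells, nor Slc17a6, their glutamate transporter, was detected in 32 cells, of which 8 were down cells and 24 Pcdh9-Cre cells. Among the 237 HB9-GFP and 206 up cells there were 0 such cells. Gm13394 was above the highest HB9-GFP cell in 29 of the 32 (median 230 CPM, 0 to 505), Eno1b in 30 of 32 (median 123 CPM, 0 to 976) and Gm26825 in 29 of 32 (median 146 CPM, 0 to 503). Gm4735 and Gm15487 were each above it in 24 of 32. The groups among the 32 cells differed for Gm13394. It was detected in all 24 Pcdh9-Cre cells (median 256 CPM) but in 5 of the 8 down cells (median 34.1 CPM, highest 91.9). The other 176 down cells had a median of 119 CPM. Gm26825 was also lower in the 8 down cells than in the other 176 (medians 126 and 261 CPM), while Eno1b was higher (241 and 144 CPM). Hmgn2 had a median of 11.3 CPM (0 to 648) in the 32 cells, beside 199 CPM in HB9-GFP cells. In the 24 Pcdh9-Cre cells the median summed level was 567 CPM for 12 ganglion cell markers, 5271 CPM for 8 rod markers, 3866 CPM for 8 glial markers and 9117 CPM for 10 microglial markers. In the 8 down cells these medians were 367, 16.9, 2950 and 0 CPM. Most of the 32 cells held Gm13394, Eno1b and Gm26825 above every HB9-GFP cell, but they were in the pools that chose the genes. The HB9-GFP cells set beside them all had Rbpms or Slc17a6. These values are a description only.

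A looser rule, added after seeing the data, gave HB9-GFP cells to set beside them. With the 12 ganglion cell markers summing to under 1000 CPM it took 2 HB9-GFP, 6 down and 23 Pcdh9-Cre cells, and 0 up cells. The 2 HB9-GFP cells, both of P14, had microglial markers at 29723 and 36057 CPM and ganglion cell markers at 1.41 and 37.1 CPM, although the sort was set against CD11b. Gm13394 was at 1.41 and 0 CPM in them, Eno1b at 0 and 3.09 CPM, and Hmgn2 at 149 and 411 CPM. Gm26825 was below 0.5 fragments in both, beside Hspa8 at 901 and 4544 CPM. The 23 Pcdh9-Cre cells had microglial markers at a median of 12691 CPM (0 to 44741), Gm13394 at 109 to 685 CPM (median 241) and Hmgn2 at 1.63 to 648 CPM (median 51.5). For Gm13394 and Eno1b the 2 HB9-GFP cells, of P14, lay below all 23 Pcdh9-Cre cells, of P10. Gm26825 was detected in 22 of those 23, and for Hmgn2 the 2 groups overlapped. The 6 down cells had Gm13394 at 0 to 91.9 CPM (median 34.1, detected in 4). Their Eno1b was at 0 to 976 CPM (median 241, detected in 5). For both genes these down cells overlapped the HB9-GFP cells.

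Leaving out all cells under that limit changed the copies little and Hmgn2 more. The Hmgn2 mean of the Pcdh9-Cre pool went from 36.1 to 11.8 CPM, and that of the down pools from 16.7 to 11.8 CPM. Gm13394 stayed at 284 CPM in the Pcdh9-Cre pool and 116 CPM in down pools. The down pool at P7, with Hmgn2 at 44.2 CPM, held 1 exceptional cell among 18. That cell had Hmgn2 at 525 CPM, microglial markers at 2589 CPM, ganglion cell markers, Gm13394 and Eno1b at 0, and a Gm26825 share of 0.390%. One up cell at P5 departed from its group for the Eno1 copies and Gm13394, with an Eno1b share of 0.206% and Gm13394 at 1.14 CPM. Its Gm26825 (162 CPM) and its ganglion cell markers (8705 CPM) were present.

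Within the Spig1-GFP line, the comparison of up with down cells did not enter the choice of the genes and was tested. Pools were compared over 6 ages with age as a block in limma. The p-values thus rest on how much the up minus down difference varies between ages, and part of that spread may be technical. None of the 7 genes passed the adjusted threshold of 0.05, against 1.68% of 11370 genes tested (0.985% higher and 0.695% lower in up pools). At an unadjusted p of 0.05, 3 of the 7 did, against 11.4% of all genes. All 3 belong to the Eno1 family and share most of the copies' sequence, so they are not separate signals. Eno1 had -0.24 ± 0.08 (log2 up minus down, SE, adjusted p = 0.268), Eno1b -0.29 ± 0.11 (adjusted p = 0.328) and Gm4735 -0.28 ± 0.12 (adjusted p = 0.376). Each was lower in up pools at 5 of 6 ages. Without the cells lacking Rbpms and Slc17a6, all of them down cells in this line and 1 of them with Eno1 at 16077 CPM, Eno1 had -0.09 (adjusted p = 0.714). Eno1 had -0.44 within the first sample-sheet series and -0.02 within the second, and -0.07 with the mean of log values over cells. Without the cells lacking both genes Eno1b had -0.22 and Gm4735 -0.20. With the mean of log values both had -0.14. Gm13394 (-0.03 ± 0.14), Gm26825 (-0.02 ± 0.08) and Gm15487 (-0.0028 ± 0.15) differed by less than their errors, and Hmgn2 by -0.24 ± 0.27.

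The change with age was tested next for each gene. In ON cells of Spig1-GFP, 3 of the 7 genes rose between P4 and P12. Over all 11370 genes tested 10.8% were called, 5.61% higher and 5.22% lower. The 3 are Eno1 and its copies, with 69.6% of the words of Eno1b and 75.2% of those of Gm4735 found in Eno1. They are therefore not 3 separate signals. On the log2 scale Eno1 rose by 1.3 ± 0.22 (SE; adjusted p = 0.00352), Gm4735 by 1.19 ± 0.22 (adjusted p = 0.00591) and Eno1b by 1.15 ± 0.27 (adjusted p = 0.0179). Gm26825 had 0.48 ± 0.15 (adjusted p = 0.0624), and Gm13394 (-0.11 ± 0.28), Gm15487 (0.22 ± 0.26) and Hmgn2 (-0.24 ± 0.48) did not pass. Over all genes 638 were called higher and 594 lower with CPM, 645 and 351 with the authors' size factors, and 621 and 331 in FPKM. With size factors and FPKM Gm26825 passed (adjusted p = 0.0350 and 0.0364). Eno1b lost its call without P5 (adjusted p = 0.0698) or P12 (adjusted p = 0.324), and within the first (adjusted p = 0.0553) and second (adjusted p = 0.108) sample-sheet series. Gm4735 lost it without P12 (adjusted p = 0.133). The lower cloud of Eno1b shares at P5, P8 and P10 lies within this age range, and its part in the trend was not tested. Rod markers rose over the same ages in 6 of 7 tested, and their summed level ran from 0 to 1275 CPM in Spig1-GFP pools. Their part in these changes was not tested.

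In ON-OFF cells of HB9-GFP, 3 genes were high enough to test and 4 copies fell below the filter of 5 CPM. Eno1 rose by 1.00 ± 0.21 between P4 and P14 (adjusted p = 0.0213), in a comparison where 3.81% of 11458 genes were called, 1.91% higher and 1.89% lower. Gm4735 (0.41 ± 0.46, adjusted p = 0.656) and Hmgn2 (-0.55 ± 0.31, adjusted p = 0.354) did not pass. The call for Eno1 was lost without P4 (adjusted p = 0.204), P5 (adjusted p = 0.0904) or P8 (adjusted p = 0.0572), within the first sample-sheet series (adjusted p = 0.149), and with size factors (adjusted p = 0.0537) or with the mean of log values over cells (adjusted p = 0.0544). Its fitted change stayed between 0.93 and 1.08 throughout.

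The rise of Eno1 was shared by other enzymes of glycolysis. Of 16 such genes tested in ON cells beside Eno1 and Eno1b, 11 rose with age and 0 fell (median 1.02, all genes -0.04). Among all genes tested there, 5.61% were called higher and 5.22% lower. The count of glycolysis genes was 11 without cells with few ganglion cell markers and 6 without P12. Aldoc, an aldolase isoform, rose by 4.11 ± 0.27 (adjusted p = 8.66e-06), Eno2, the neuronal enolase, by 2.01 ± 0.20 (adjusted p = 0.000199) and Pgk1, phosphoglycerate kinase, by 1.29 ± 0.15 (adjusted p = 0.000389). In ON-OFF cells 7 of 15 rose and 0 fell (median 0.98, all genes -0.16), with Aldoc at 3.84 ± 0.34 (adjusted p = 0.000149) and Eno2 at 2.70 ± 0.26 (adjusted p = 0.000205). Among all genes tested in ON-OFF cells, 1.91% were called higher and 1.89% lower. Without P4 the count of glycolysis genes was 2, and without P5 or P8 it was 4. Between up and down cells 0 of 16 passed, against 1.68% of all genes. Between the lines, 0 of 15 were higher in ON-OFF cells and 7 were lower, against 5.01% of all genes called lower, with Eno2 at -0.86 ± 0.11 (adjusted p = 0.000196) and Aldoa, another aldolase, at -0.72 ± 0.10 (adjusted p = 0.000637). Microglial markers differed between the same groups. All 9 tested (of 10) were called higher in ON-OFF cells, by 1.32 to 3.91 on the log2 scale. The share of all genes called higher was 4.65%. The filter of 5 CPM takes the mean over both groups. Among Spig1-GFP pools alone 2 of the 10 reached it, so most entered through their HB9-GFP levels. Nothing is therefore read from the count of 9. Within the first and second sample-sheet series, 1 of 7 and 0 of 8 tested microglial markers were called. Their summed level was 141 to 1859 CPM in HB9-GFP pools, 16 to 157 CPM in down and 16.8 to 54.1 CPM in up pools, with 1 marker at 0 in all down pools and 3 in all up pools. The median cell had 12 CPM in HB9-GFP, 7.19 CPM in down and 17.4 CPM in up cells. With the mean of log values over cells, 7 glycolysis genes were lower and 0 of 1 microglial markers tested was called. The part of microglial RNA in the differences between lines, that of Hmgn2 included, was not tested.

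The relatives of Hmgn2 did not share its difference between lines in size. Of 5 other high mobility group genes tested, Hmgb1, a DNA-bending protein, was higher in ON-OFF cells by 0.64 ± 0.16 (adjusted p = 0.0243), and 4 did not pass. Among all genes 4.65% were called higher there. In the age comparisons Hmgb3 fell by 1.09 ± 0.28 in ON cells (adjusted p = 0.0283) and by 1.52 ± 0.33 in ON-OFF cells (adjusted p = 0.0255). No other gene of this list passed with age, 4 in ON cells and 5 in ON-OFF cells. Among all genes 5.22% were called lower with age in ON cells and 1.89% in ON-OFF cells. The call for Hmgb1 was lost without P5, P8, P10 or P12, within either sample-sheet series and with the mean of log values. That for Hmgb3 was lost without P5 or P12 in ON cells and without P4, P5, P8 or P14 in ON-OFF cells. In both it was also lost with size factors, with FPKM, with genes kept from 1 CPM and within either series.

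Neighbours on the chromosome did not move as a block with the genes. Of the 20 nearest tested genes of each, 1 (Eno1b, Gm13394), 2 (Eno1, Gm4735, Gm15487) or 3 (Gm26825, Hmgn2) differed between lines, which is 5% to 15% beside 9.65% of all genes. The largest of these were Ntng2 beside Gm13394 (-2.16 ± 0.29, adjusted p = 0.000434), Pde1a beside Gm4735 (1.89 ± 0.26, adjusted p = 0.000532) and Gm15459 beside Gm26825 (-1.42 ± 0.15, adjusted p = 5.32e-05), the last with shared sequence. Stmn1, which encodes a microtubule regulator, was higher beside Hmgn2 by 1.08 ± 0.11 (adjusted p = 4.91e-05). Processed pseudogenes as a class were called in 10.3% of 174 genes, 1 higher and 17 lower in ON-OFF cells. Beyond Gm13394, Gm4735 and Gm15487, the lowest pseudogene was Gm9825 at -1.59, the 103rd lowest of all genes.

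The pattern over the 19 pools was alike among the copies, as their choice fixed. Pearson r on log2(mean CPM + 5) was 0.99 for Eno1b with Gm4735, 0.99 for Gm13394 with Gm15487 and 0.99 for Eno1b with Gm26825, and between -0.92 and -0.95 for Hmgn2 with the 5 copies. Sh3bp4 and Cbln4 were among the 3 lowest genes for each copy other than Gm4735, whose lowest was Runx1t1 (-0.94). The highest with Hmgn2 were Foxp1 (0.93), Cdh10 (0.93) and Sorcs1 (0.92). Eno1 was most like Olfm4 (0.89), Fgf1 (0.89) and Myadm (0.89). Over the 12 Spig1-GFP pools alone, Eno1b kept its likeness to Gm4735 (0.98) and lost that to Gm13394 (0.12) and Gm15487 (0.19), while Eno1 had 0.77 with Gm4735 and -0.03 with Gm13394. The pools share lines, libraries and overlapping reads, and no p is given.

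The labels and depth were looked at for all cells. Mnx1, the gene also named HB9, was detected in 71.7% of HB9-GFP cells and in 0 cells of the other groups. Fstl4, the gene also named Spig1, was detected in 205 of 206 up cells, in 39 of 184 down cells, in 57 of 92 Pcdh9-Cre cells and in 144 of 237 HB9-GFP cells. Rbpms was detected in 95.7% or more of the cells in each GFP group and in 70.7% of Pcdh9-Cre cells, so the ganglion cell label does not hold for all Pcdh9-Cre cells. Depth ran from 108799 to 1884350 estimated fragments per cell, with pool medians between 855490 and 1122940 in GFP lines and 692382 in Pcdh9-Cre. In a pool mean alone, fewer cells of a type and less RNA per cell cannot be told apart. Values per cell are given above, such as Gm13394 at no more than 4.68 CPM in any of 237 HB9-GFP cells.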

How the data were processed

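Per the labels' protocols, single cells were sorted and sequenced with Smart-seq2 as 75 bp paired-end reads. Per the submitters' processing notes, the builds were GRCm38.p6 and mm10, and the tools included Cufflinks 2.2.1 with Cuffnorm, HISAT2 2.1.0, R 3.5.1 and SAMtools 1.3.1. The assignment of reads that match several genes, and of strand, was not given in the sources used here. As deposited by the authors, the tables hold a signal per gene, transcript and cell, an estimated fragment count divided by a size factor. Of the positive values per gene and cell, 96.2% came back within 0.05 of a whole number after multiplication. The size factor itself is a ratio per cell in the authors' deposited table of cells. Since the values are estimates and not all came back whole, they were not taken as whole reads and no count model was fitted. The authors' deposited FPKM values served as an alternative and for levels between genes.

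A cell's values were scaled to CPM and averaged over the cells of each of 19 pools. Comparisons used limma 3.58.1 (R 4.3.3) on log2(mean CPM + 5), kept genes whose mean reached 5 CPM, and adjusted p-values by Benjamini-Hochberg over every gene kept, at a threshold of 0.05, after a test on simulated data. An age trend is the fitted change over the full age range. No animal is named in the labels. The genes, lists and comparisons were chosen with earlier results of these data known. Of 53374 identifiers, 53269 were matched to GENCODE M21. Named genes are the 7 members, genes sharing at least 1 word of 75 bases with them (at most 10 per member), 2 lists (glycolysis, high mobility group), up to 3 called neighbours per member and the 3 most and least alike genes per member. Gnb1, Gm8399, Gm1821, Rps19-ps6, Per3, Camta1, Gm9825 and the single cells described were chosen after their values were seen. Columns left without a sample numbered 0.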

Additional observations from a re-analysis of the deposited data

Results flagged for a closer look

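Within each group of 6 pools, the highest and lowest pool were compared with the others by the size of the gap between them. Of 21 such groups, 2 held a pool that stood apart, and chance alone marks about 1 in 20 groups. Eno1b in up cells at P12 had 252 CPM, while the other 5 up pools lay between 76.1 and 141 CPM. The down pool at P12 had 248 CPM, so both directions were highest at that age. All P12 cells lay in the upper cloud of Eno1b shares.

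Hmgn2 in down cells at P7 had 44.2 CPM, while the other down pools lay between 5.62 and 19.5 CPM. The pool held 18 cells, and 1 of them, without ganglion cell markers, had Hmgn2 at 525 CPM. Without cells with few ganglion cell markers the highest down pool had 19.1 CPM.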

How the results depend on the processing

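The number of genes called moved by more than 1.5 times in these cases. Up against down cells gave 191 genes, 97 in FPKM, and 117 and 70 within the first and second sample-sheet series. Leaving out each age in turn gave 129 to 145. The age trend in ON cells gave 1232 genes, 601 and 614 within the series, and 388 (without P12) to 1266 with an age left out (620 without P4, 802 without P5, 796 without P10). The age trend in ON-OFF cells gave 436 genes, 282 when genes were kept from 1 CPM, 259 in FPKM, 287 with size factors, 115 and 228 within the series, and 88 (without P4) to 708 (without P14) with an age left out (116 without P5, 275 without P8). ON-OFF against ON cells gave 1103 genes, 573 and 545 within the series, and 710 (without P8) to 998 with an age left out. Within a series each pool holds fewer cells. With the mean of log values over cells, ON-OFF against ON gave 209 higher and 879 lower genes, where pool means gave 531 and 572. Each gene kept its direction between lines under all 17 alternatives: Eno1 from -0.58 to -0.33, Eno1b from -6.23 to -2.91, Gm13394 from -6.10 to -2.67, Gm4735 from -3.14 to -2.03, Gm26825 from -5.77 to -3.54, Gm15487 from -3.59 to -1.52 and Hmgn2 from 3.09 to 4.41. Within the first and second series Gm13394 had -4.42 and -4.28, Eno1b -4.70 and -4.44, and Hmgn2 4.32 and 3.70. The size factors, the sample-sheet series, the totals without CT010467.1, the limit on ganglion cell markers and the shares per cell were chosen after seeing the data. No paired analysis was possible because replicate numbers only number single cells within a pool, and age is already a block where groups are compared.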
